A study of Mus musculus with 4 samples.

Results

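The expression of 10 genes that act in, or respond to, signalling from fibroblast growth factor (FGF) receptors through the kinase ERK was described in calvarial bone of wild-type and *Twist1*+/- mice. They were the Sprouty genes *Spry1*, *Spry2*, *Spry3* and *Spry4*, the Sprouty-related genes *Spred1* and *Spred2*, the phosphatase gene *Dusp6*, and the ETS-family transcription factor genes *Etv4*, *Etv5* and *Erf*. The genes were chosen by name, for their place in the pathway, and all 10 were found among the 23946 gene symbols measured. RNA was taken from frontal or parietal bone of wild-type and *Twist1*+/- mice of the C57BL/6J background at postnatal day 21, from 12 mice of each strain, and was sequenced as 4 libraries: wild-type frontal, wild-type parietal, *Twist1*+/- frontal and *Twist1*+/- parietal. *Twist1* encodes a basic helix-loop-helix transcription factor, and *Twist1*+/- mice carry 1 intact copy of it in every cell. With 1 library for each group there was no replicate error, so that no difference was tested, no p-value is given, and a ratio of any size may lie within the spread between animals or preparations.

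FGF receptors activate Ras and, through the kinases Raf and MEK, ERK. Sprouty and Spred proteins restrain this cascade, and the phosphatase encoded by *Dusp6* removes the activating phosphates from ERK. Several of these inhibitors, and the ETS activators *Etv4* and *Etv5*, are themselves transcribed in response to ERK, and are therefore widely used as a readout of FGF signalling, while *Erf* encodes an ETS repressor that active ERK moves out of the nucleus. In the skull the pathway takes part in the growth of the sutures between the frontal and parietal bones.

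As deposited, the targeted gene differed clearly between the genotypes in frontal bone and little in parietal bone. *Twist1* had an FPKM, the number of fragments scaled to transcript length and to library size, of 59.0 in the wild-type frontal library and was lower in the *Twist1*+/- frontal library, at 30.4 FPKM, a log2 ratio of -0.96. The parietal pair stood at 52.5 FPKM for wild-type and 50.7 FPKM for the library with the *Twist1*+/- label, a log2 ratio of -0.05. That ratio depended on the processing: the parietal genotype ratio followed base composition over all genes, and with the median of genes of like GC content subtracted it was -0.58 for *Twist1*, with a GC content of 59.7%, while scaled to *Gapdh* it was 0.34. The last library is therefore named by its label throughout. All libraries held bone: the osteoblast gene *Bglap* was at 5220 to 7982 FPKM. They also held other tissue in unequal amounts. The summed FPKM of 10 nasal epithelium genes ran from 21.9 in the wild-type parietal to 1660 in the labelled *Twist1*+/- parietal library, with *Scgb1a1* listed at 0 in all 4, that of 10 brain and meninges genes from 109 in the wild-type parietal to 2302 in the wild-type frontal library, and that of 10 skeletal muscle genes from 117 in the wild-type frontal to 3787 in the wild-type parietal library. Of the 2302 FPKM of brain and meninges genes, *Ptgds* made up 1975 FPKM, though all 10 were lower in the wild-type parietal than in the wild-type frontal library. In such bulk tissue, fewer cells of a type and less RNA per cell cannot be told apart. The part of these tissues in the values given here was not tested.

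Nearly all of these genes were expressed at low to moderate levels and in a steady order. *Dusp6* had the highest FPKM of the 10 in all 4 libraries and *Spry3* the lowest, and 7 of the 10 genes held the same rank in every library. Those ranks were 1 for *Dusp6*, 5 for *Spry2*, 6 for *Etv5*, 7 for *Spred2*, 8 for *Spry4*, 9 for *Etv4* and 10 for *Spry3*. *Spred1*, *Spry1* and *Erf* exchanged the places between *Dusp6* and *Spry2*. FPKM is a level per transcript length, so that it may be set side by side between genes, but no spread is known for neighbours such as *Spry1* and *Spry2* in the wild-type frontal library, at 8.77 and 8.76 FPKM. All 10 genes were above 0 in all libraries, and 9 had at least 1 FPKM in each, the level below which a ratio was not counted. The exception was *Spry3*.

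**Figure D1:**
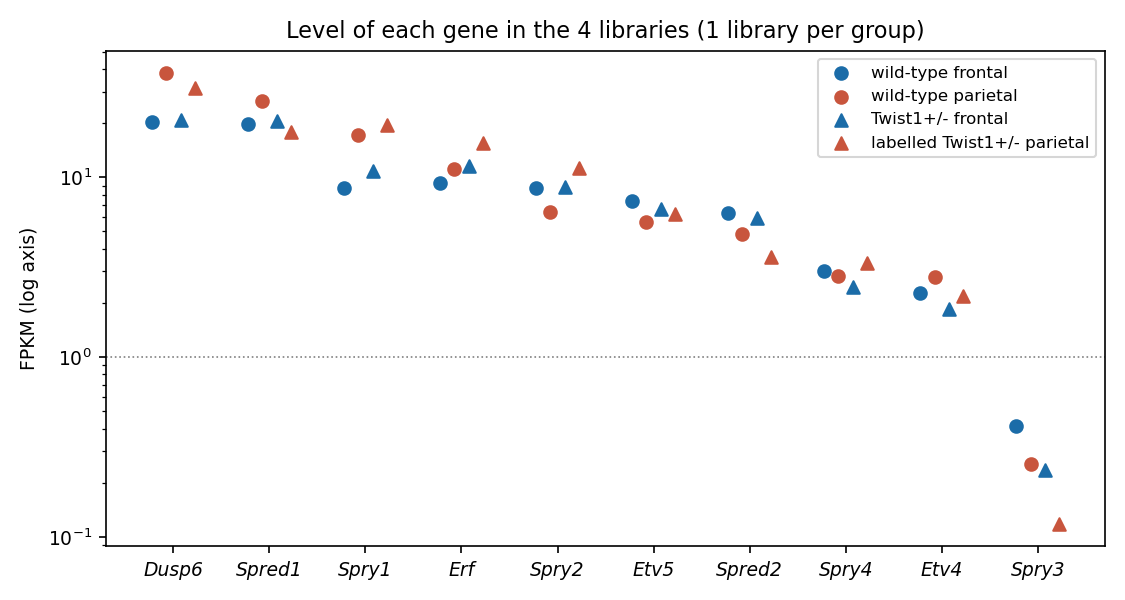
FPKM of each of the 10 genes (log axis) in the 4 libraries, with blue for frontal, red for parietal, circles for wild-type and triangles for *Twist1*+/-, 1 point per library and no error bars because each group had 1 library. The dotted line marks 1 FPKM. *Dusp6* lies highest at 20.4 to 38.0 FPKM, and *Spry3* lies below the line at 0.118 to 0.412 FPKM.

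The Sprouty genes encode membrane-associated inhibitors of receptor tyrosine kinase signalling, and their 4 members did not share a pattern. *Spry1* (mm9 chromosome 3, 37538869 to 37543520, plus strand) had 8.77 FPKM in the wild-type frontal library, 17.1 FPKM in the wild-type parietal, 10.9 FPKM in the *Twist1*+/- frontal and 19.5 FPKM in the labelled *Twist1*+/- parietal library. Both parietal values thus lay above both frontal values. *Spry2* (chromosome 14, 106291166 to 106296036, minus strand) had 8.76 FPKM in the wild-type frontal library, 6.42 FPKM in the wild-type parietal, 8.84 FPKM in the *Twist1*+/- frontal and 11.3 FPKM in the labelled *Twist1*+/- parietal library. Its frontal values were nearly equal, and its lowest and highest values were those of the parietal libraries of the 2 genotypes.

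*Spry4* (chromosome 18, 38745922 to 38760922, minus strand) varied least of the Sprouty genes, with 3.0 FPKM in the wild-type frontal library, 2.82 FPKM in the wild-type parietal, 2.45 FPKM in the *Twist1*+/- frontal and 3.35 FPKM in the labelled *Twist1*+/- parietal library, and its highest value was 1.37 times its lowest. *Spry3* had 0.412 FPKM in the wild-type frontal library, 0.253 FPKM in the wild-type parietal, 0.237 FPKM in the *Twist1*+/- frontal and 0.118 FPKM in the labelled *Twist1*+/- parietal library. Its highest value was 3.48 times its lowest, the widest relative range of the 10 genes, but all of its values lay below 1 FPKM, and with 1 FPKM added to each value its log2 ratios in the 4 comparisons were between -0.15 and -0.19. It was left out of the counts.

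The 2 Spred genes, whose proteins bind the Ras regulator neurofibromin, differed from each other in RNA level. *Spred1* (chromosome 2, 116947110 to 117008015, plus strand) had 19.7 FPKM in the wild-type frontal library, 26.6 FPKM in the wild-type parietal, 20.5 FPKM in the *Twist1*+/- frontal and 18.0 FPKM in the labelled *Twist1*+/- parietal library. *Spred2* (chromosome 11, 19824378 to 19924029, plus strand) had 6.31 FPKM in the wild-type frontal library, 4.85 FPKM in the wild-type parietal, 5.91 FPKM in the *Twist1*+/- frontal and 3.60 FPKM in the labelled *Twist1*+/- parietal library. *Spred1* was highest in the wild-type parietal library, while *Spred2* was lower in both parietal than in both frontal libraries, and both genes had their lowest value in the labelled *Twist1*+/- parietal library.

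*Dusp6* (chromosome 10, 98725865 to 98730122, plus strand) had 20.4 FPKM in the wild-type frontal library, 38.0 FPKM in the wild-type parietal, 20.8 FPKM in the *Twist1*+/- frontal and 31.5 FPKM in the labelled *Twist1*+/- parietal library. As for *Spry1*, both parietal values lay above both frontal values.

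Among the ETS genes, *Etv4* (chromosome 11, 101631056 to 101646685, minus strand) had 2.27 FPKM in the wild-type frontal library, 2.80 FPKM in the wild-type parietal, 1.86 FPKM in the *Twist1*+/- frontal and 2.19 FPKM in the labelled *Twist1*+/- parietal library. *Etv5* (chromosome 16, 22381382 to 22439792, minus strand) had 7.41 FPKM in the wild-type frontal library, 5.63 FPKM in the wild-type parietal, 6.69 FPKM in the *Twist1*+/- frontal and 6.26 FPKM in the labelled *Twist1*+/- parietal library. These activators thus differed in order, with *Etv4* highest and *Etv5* lowest in the wild-type parietal library. The repressor gene *Erf* (chromosome 7, 26027580 to 26035780, minus strand) had 9.30 FPKM in the wild-type frontal library, 11.1 FPKM in the wild-type parietal, 11.6 FPKM in the *Twist1*+/- frontal and 15.6 FPKM in the labelled *Twist1*+/- parietal library. As deposited it was higher in *Twist1*+/- than in wild-type in each bone, but in parietal bone its log2 ratio of 0.49 became -0.03 after subtraction of the GC group median. None of the 9 genes with coordinates overlapped another annotated gene on mm9.

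The comparison of parietal with frontal bone asked which of the genes differ between the bones, and could be read in each genotype from separate libraries. *Spry1* was 1.95-fold higher in parietal than in frontal bone of wild-type mice and 1.80-fold higher in *Twist1*+/- mice, log2 ratios of 0.97 and 0.85. *Dusp6* was 1.86-fold and 1.51-fold higher, log2 ratios of 0.90 and 0.60. They were the 2 of 9 genes counted that were more than 1.5-fold higher in parietal bone in both genotypes, as were 6.14% of the 13759 genes measured at 1 FPKM or more in both comparisons. Neither gene kept this with *Gapdh* scaling, where both wild-type ratios were under 1.5-fold, and *Dusp6* did not keep it with 1 FPKM added, at a *Twist1*+/- log2 ratio of 0.57. *Etv4* and *Erf* were also higher in parietal bone in both genotypes, with log2 ratios of 0.31 and 0.24 for *Etv4* and of 0.25 and 0.43 for *Erf*. The wild-type sign of both turned when the libraries were scaled to *Gapdh*. The *Twist1*+/- sign of *Etv4* turned with the subtraction of the median of genes of similar GC content. That subtraction took the *Twist1*+/- log2 ratio of *Erf* to 0.06 and that of *Spry1* to 0.59. Across genes, the bone ratio followed GC content more in *Twist1*+/- than in wild-type mice, with Spearman correlations of 0.431 and -0.139. In *Twist1*+/- mice the median log2 ratio ran from -0.43 in the lowest to 0.42 in the highest GC group. *Spred2* was 1.30-fold lower in parietal bone of wild-type and 1.64-fold lower in that of *Twist1*+/- mice, and *Etv5* was lower by log2 ratios of -0.39 and -0.10. The remaining 3 genes, *Spry2*, *Spry4* and *Spred1*, had opposite directions in the 2 genotypes as deposited, which for *Spred1* did not hold with *Gapdh* scaling or the GC subtraction.

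**Figure D2:**
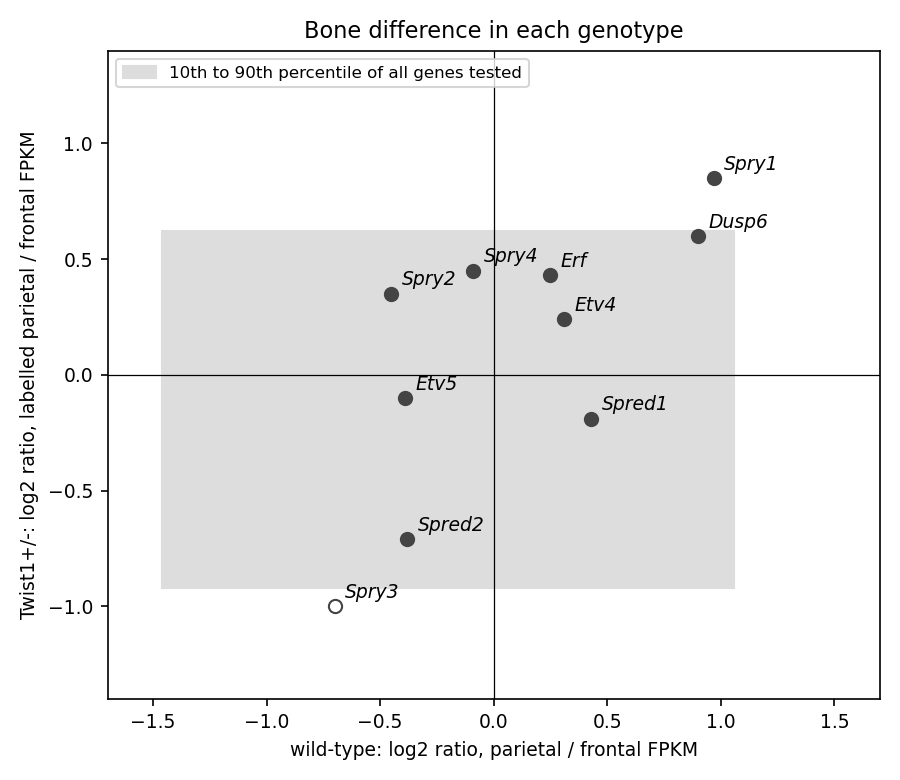
log2 ratio of parietal over frontal FPKM in wild-type (x axis) and *Twist1*+/- mice (y axis, with the labelled *Twist1*+/- parietal library), 1 point per gene and no error bars because each group had 1 library. The shaded box spans the 10th to 90th percentile of all genes on each axis, and *Spry3*, below 1 FPKM, is an open circle. *Spry1* lies at 0.97 and 0.85, above the box, and *Dusp6* at 0.90 and 0.60, at its upper edge.

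No gene of the set passed 3-fold between bones, where 13.3% of all genes did so in wild-type and 4.09% in *Twist1*+/- mice. None passed 2-fold in either direction. Of all genes, 11.2% were more than 2-fold higher and 15.6% more than 2-fold lower in parietal bone of wild-type mice, and 2.98% and 8.92% of *Twist1*+/- mice. At 1.5-fold in either direction, 2 of the 9 genes passed in wild-type mice (*Spry1* and *Dusp6*), against 48.6% of all genes. In *Twist1*+/- mice 3 of the 9 passed (*Spry1*, *Spred2* and *Dusp6*), against 30.5% of all genes, a share close to that of the set. The median log2 ratio of the 9 genes was 0.25 in wild-type and 0.35 in *Twist1*+/- mice, beside medians of -0.01 and -0.03 over all genes.

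Other measures moved with the bone. The summed FPKM of the 7 osteoclast marker genes was 3.51 times as high in parietal as in frontal bone of wild-type mice and 2.06 times as high in *Twist1*+/- mice, and all 7 were higher in both. These sums were 2596 FPKM in the wild-type frontal library, 9124 FPKM in the wild-type parietal, 3238 FPKM in the *Twist1*+/- frontal and 6680 FPKM in the labelled *Twist1*+/- parietal library. The sum of 10 osteoblast and osteocyte genes was 1.64 and 1.49 times as high, with 7 and 9 of the 10 higher. The wild-type rise in this sum lay in *Spp1*, at 4107 of 11682 FPKM in frontal and 12240 of 19103 FPKM in parietal bone. *Bglap*, 1 of the 3 genes lower there, went from 6811 to 5220 FPKM. In *Twist1*+/- mice both were higher in parietal bone, *Spp1* at 6724 against 4579 FPKM and *Bglap* at 7982 against 5371 FPKM. The sum of 8 suture mesenchyme and fibroblast genes was 2.37 and 1.44 times as high, with 7 of the 8 higher in each. *Postn* alone made up most of the latter sum. It had 396.1 of 513 FPKM in the wild-type frontal library and 1044 of 1217 FPKM in the wild-type parietal. In the *Twist1*+/- frontal library it had 199.3 of 310 FPKM, and in the labelled *Twist1*+/- parietal 282.6 of 447 FPKM. All 10 skeletal muscle genes were higher in parietal bone in both genotypes, by sums 32.5 and 1.28 times as high, and the sum of 10 neutrophil genes was lower, at 0.49 and 0.571 times the frontal sum. No gene of these lists was listed at 0 in all libraries. Their part in the values of *Spry1* and *Dusp6* was not tested. *Gapdh*, a glycolytic gene often used as a reference, stood at 158.0 FPKM in the frontal and 215.0 FPKM in the parietal library of wild-type mice, and scaled to it the wild-type log2 ratios were 0.52 for *Spry1* and 0.45 for *Dusp6*. In the *Twist1*+/- libraries, with 169.7 and 163.9 FPKM of *Gapdh*, the scaled ratios were 0.89 and 0.65.

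Over the 4 libraries, *Spry1* had the widest range of the set on the scale of log2(FPKM + 1). The 3 genes of 14759 with the nearest pattern on that scale, each centred on its own mean, were *Sepw1*, *Mtch1* and *Thap3*, at Euclidean distances of 0.034, 0.049 and 0.063. *Sepw1*, which encodes a small selenoprotein, had 191.9, 350.8, 236.8 and 401.3 FPKM in the order wild-type frontal, wild-type parietal, *Twist1*+/- frontal and labelled *Twist1*+/- parietal. With 4 points, many genes can lie this near.

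The start regions of *Spry1*, *Dusp6* and *Spred2*, the genes that passed 1.5-fold between the bones in at least 1 genotype, are shown because ETS factors bind a core GGAA and the set holds both ETS genes and targets of ERK. The sequences are RefSeq start regions placed on mm9 by exact match. Each sequence runs 5′ to 3′ on the plus strand of mm9, the strand of all 3 genes, from 250 bases before to 50 after the start, at chr3:37538619-37538918 for *Spry1*, chr10:98725615-98725914 for *Dusp6* and chr11:19824195-19824494 for *Spred2*. Capitals mark the letters CGGAA or, on the other strand, TTCCG, a narrower string than the core GGAA. Other GGAA or TTCC letters, present in all 3 regions, stay in lower case and were not counted.
Spry1: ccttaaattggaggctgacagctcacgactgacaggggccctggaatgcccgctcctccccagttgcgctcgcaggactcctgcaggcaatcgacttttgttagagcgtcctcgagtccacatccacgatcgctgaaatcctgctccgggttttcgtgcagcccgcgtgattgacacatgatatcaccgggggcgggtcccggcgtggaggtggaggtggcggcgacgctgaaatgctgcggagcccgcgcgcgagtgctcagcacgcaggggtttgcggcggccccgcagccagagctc
Dusp6: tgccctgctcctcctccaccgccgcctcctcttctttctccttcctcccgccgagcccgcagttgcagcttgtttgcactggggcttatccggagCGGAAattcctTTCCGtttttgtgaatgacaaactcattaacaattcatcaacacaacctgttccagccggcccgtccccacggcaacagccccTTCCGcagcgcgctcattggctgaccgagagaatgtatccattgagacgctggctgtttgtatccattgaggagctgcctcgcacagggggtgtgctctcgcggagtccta
Spred2: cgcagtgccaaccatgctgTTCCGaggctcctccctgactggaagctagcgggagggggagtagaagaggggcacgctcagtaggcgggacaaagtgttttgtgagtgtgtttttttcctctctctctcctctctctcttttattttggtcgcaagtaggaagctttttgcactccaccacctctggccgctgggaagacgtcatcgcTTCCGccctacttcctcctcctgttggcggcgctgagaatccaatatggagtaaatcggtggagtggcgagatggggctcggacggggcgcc
The *Dusp6* region held 3 matches to CGGAA, 155, 144 and 61 bases before the start, the *Spred2* region 2, and the *Spry1* region none, though it holds GGAA. Of the others with a start region, *Spred1* had 2 matches and *Spry2* 1, while *Erf* and both start regions of *Etv5* had none. Of the 32851 start regions of the same length, 29.9% held at least 1 match to CGGAA on either strand and 10.3% held 2 or more. The median GC content of all these regions was 52.7%, while the regions of the set had 57.0% to 74.0%. Shares over all regions are thus not matched for base composition. For the E-box CANNTG, the class of site bound by helix-loop-helix factors such as Twist1, there were 2 matches for *Spry1*, 1 for *Dusp6* and none for *Spred2*, and 72.3% of all start regions held one. A match describes the letters only.

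In frontal bone, where *Twist1* had a log2 ratio of -0.96, the set differed little between genotypes. *Dusp6*, *Spry2* and *Spred1* had log2 ratios of *Twist1*+/- over wild-type of 0.03, 0.01 and 0.06. *Spry1* and *Erf* were 1.24-fold higher, *Spry4* and *Etv4* were 1.23-fold and 1.22-fold lower, and *Etv5* and *Spred2* were 1.11-fold and 1.07-fold lower. Of the 9 genes, 5 were higher and 4 lower, and the median log2 ratio was 0.01, beside -0.04 over all genes. None of the 9 passed 3-fold, where 3.89% of all genes did, and none passed 2-fold, where 4.98% were higher and 2.20% lower. None passed 1.5-fold, against 15.2% of all genes. Other tissue differed between the frontal libraries as well. From wild-type to *Twist1*+/-, the sum of 10 skeletal muscle genes went from 117 to 1455 FPKM, with all 10 higher. That of 10 nasal epithelium genes went from 315 to 1469 FPKM, with 9 higher. The sum of 10 brain and meninges genes went from 2302 to 679 FPKM, with 6 lower and 4 higher. *Ptgds* alone had 1975 FPKM of the wild-type sum and 326.7 FPKM of the *Twist1*+/- sum, so that the fall lay mainly in this gene. The sum of 6 erythroid genes went from 1420 to 712 FPKM, with all 6 lower. Their part in these values was not tested.

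In parietal bone, the library labelled *Twist1*+/- was compared with the wild-type library, with the limit that *Twist1* itself had a log2 ratio of -0.05 as deposited and of -0.58 after subtraction of the GC group median. *Spry2* stood furthest from equality, 1.75-fold higher in the labelled *Twist1*+/- library, a log2 ratio of 0.81. *Erf* was 1.41-fold higher, *Spry4* 1.19-fold, *Spry1* 1.14-fold and *Etv5* 1.11-fold. *Spred1* was 1.48-fold lower, *Spred2* 1.35-fold, *Etv4* 1.28-fold and *Dusp6* 1.21-fold, of which *Etv4* and *Dusp6* turned sign when the libraries were scaled to *Gapdh*, to log2 ratios of 0.04 and 0.12. The set thus had 5 genes higher and 4 lower, with a median log2 ratio of 0.15, beside -0.06 over all genes, and the median turned to -0.03 with the GC subtraction, under which the ratios of *Spry1*, *Spred1* and *Erf* took the other sign. None of the 9 passed 3-fold, where 8.19% of all genes did, and none passed 2-fold, where 10.8% were higher and 9.40% lower. *Spry2* alone passed 1.5-fold, 1 of the 9, against 45.0% of all genes.

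The parietal genotype ratio also followed base composition, which has to be set beside these values. Across 11520 genes, which are not independent replicates, its Spearman correlation with the GC content of the longest coding transcript was 0.564, and the median log2 ratio ran from -0.58 in the lowest to 0.61 in the highest of 20 groups of genes by GC content. In the frontal comparison the correlation was 0.116. *Spred1*, with a GC content of 41.2%, and *Erf*, with 59.7%, lay on this trend: with the median of their GC group subtracted, their log2 ratios were 0.01 and -0.03. *Dusp6* came to -0.09 and *Spry1* to -0.18. *Spry2*, with a GC content of 46.2%, lay above the trend, and its log2 ratio became 1.25. *Etv4*, with 58.7%, lay below it, at -0.88 in place of -0.35. After the subtraction 1 of the 9 genes, *Spry2*, passed 2-fold, against 13.9% of all genes with a GC value.

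**Figure D3:**
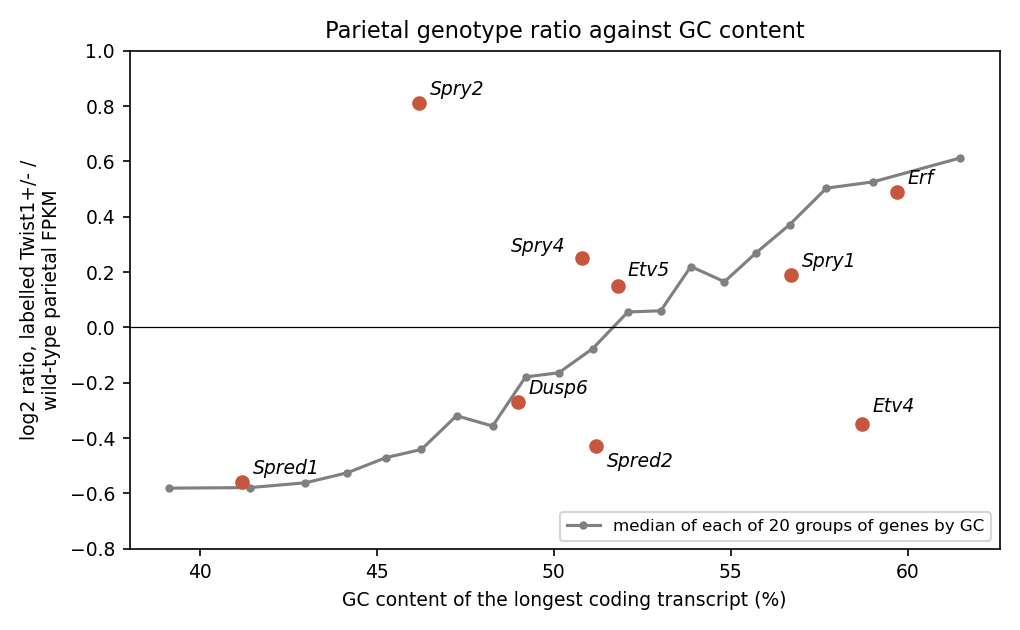
log2 ratio of labelled *Twist1*+/- over wild-type parietal FPKM against the GC content of the longest coding transcript (percent), for the 9 genes with a GC value (red points, 1 library per group). The grey line joins the medians of 20 groups of all genes ordered by GC content. *Spred1*, *Dusp6* and *Erf* lie near the line, *Spry2* lies 1.25 above it and *Etv4* 0.88 below it.

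The same subtraction left 0 of the 9 genes past 2-fold in the frontal genotype comparison, against 6.58% of all genes. It left 1, *Spry1*, in the wild-type bone comparison, at a log2 ratio of 1.12, against 25.9%. It left 0 in the *Twist1*+/- bone comparison, against 9.77%, where *Spry1* was at 0.59 and *Dusp6* at 0.68.

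**Figure D4:**
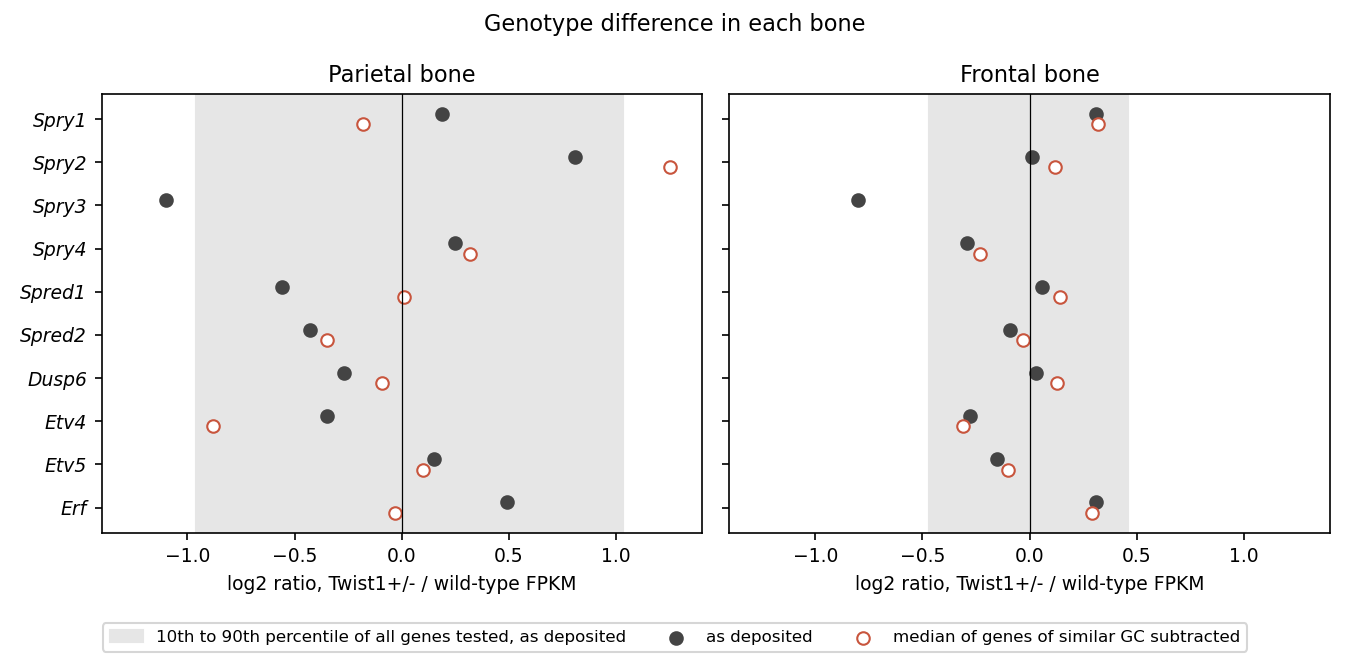
log2 ratio of *Twist1*+/- over wild-type FPKM for each of the 10 genes in parietal bone (left, with the labelled *Twist1*+/- library) and frontal bone (right), as deposited (filled). Open points, for the 9 genes with a GC value (all but *Spry3*), show the ratio after subtraction of the GC group median. Grey bands span the 10th to 90th percentile of all genes, -0.96 to 1.03 in parietal and -0.47 to 0.46 in frontal bone, and the 9 genes at 1 FPKM or more lie inside them as deposited.

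The wild-type parietal library, which serves as the control here and as the parietal library in the wild-type bone comparison, held the lowest value of *Spry2* and *Etv5* and the highest of *Spred1*, *Dusp6* and *Etv4*. The 2 comparisons share it, so that a gene low there is at once low in parietal against frontal bone and high in *Twist1*+/- against wild-type. Between the parietal libraries, 9 of 10 nasal epithelium genes and 9 of 10 brain and meninges genes were higher in the labelled *Twist1*+/- library, by sums 75.7 and 7.03 times as high, and 6 of 7 osteoclast genes were lower, by a sum 0.732 times as high. All 10 neutrophil genes were higher, by a sum 1.30 times as high. Their part in the value of *Spry2* was not tested.

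The other genes of the pathway gave a setting for these values. They were grouped as ligands, receptors, the Ras-ERK cascade, other feedback inhibitors and other ERK-responsive or ETS genes, and counted past 2-fold. None of the 4 FGF receptor and co-receptor genes at 1 FPKM or more, of 7 listed, passed in any of the 4 comparisons. Over these comparisons 2.98% to 11.2% of all genes were higher and 2.20% to 15.6% lower, and with so few genes the count says little. Of 18 ligand genes, 6 were counted in each comparison, so few that these counts also say little. In wild-type bone 2 of them were higher in parietal than in frontal, *Fgf23* and *Fgf7*, and none lower, where 11.2% of all genes were higher and 15.6% lower. *Fgf23*, the bone-derived hormone of phosphate balance, had 0.525 FPKM in the wild-type frontal library, 20.9 FPKM in the wild-type parietal, 1.0 FPKM in the *Twist1*+/- frontal and 0.202 FPKM in the labelled *Twist1*+/- parietal library, so that it was high in a single library. *Fgf7* had 1.04, 3.23, 1.29 and 2.07 FPKM in the same order. In the parietal genotype comparison 2 ligands were lower, *Fgf23* and *Fgf2*, and none higher, where 9.40% of all genes were lower and 10.8% higher. *Fgf2*, a broadly acting ligand, had 1.77 FPKM in the wild-type parietal and 0.603 FPKM in the labelled *Twist1*+/- parietal library. Its ratio thus rests on a value below 1 FPKM. In *Twist1*+/- bone 1 ligand was higher in parietal than in frontal and 1 lower, where 2.98% and 8.92% of all genes were. *Fgf18*, a ligand that acts in skeletal growth, was the higher one, at 2.85 against 1.17 FPKM. *Fgf23* was the lower one, with a log2 ratio of -2.31, in place of 5.31 in wild-type bone. In *Twist1*+/- bone *Fgf23* was counted only through 1.004 FPKM in the frontal library, at the edge of the level counted. With 1 FPKM added to each value, its log2 ratios were -0.74 in *Twist1*+/- and 3.84 in wild-type bone.

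Of 22 genes for adaptors and the Ras-ERK cascade, 21 were counted, and 1 passed in each of 2 comparisons, lower in both. In the parietal genotype comparison 9.40% of all genes were lower, and in the *Twist1*+/- bone comparison 8.92%. *Frs2*, the docking protein that couples FGF receptors to Ras, had 14.5 FPKM in the wild-type parietal and 5.58 FPKM in the labelled *Twist1*+/- parietal library, a log2 ratio of -1.38, or -0.91 after subtraction of the GC group median. *Braf*, a Raf kinase gene, had 8.10 FPKM in the *Twist1*+/- frontal and 4.0 FPKM in the labelled *Twist1*+/- parietal library, a log2 ratio of -1.02, or -0.75 after the subtraction. The median log2 ratio of the cascade genes lay between -0.17 and 0.04 in the 4 comparisons.

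Of 16 other feedback inhibitors, 15 were counted, and in the parietal genotype comparison 3 were higher and 1 lower, where 10.8% of all genes were higher and 9.40% lower. The phosphatase genes *Dusp2*, *Dusp8* and *Dusp14* were higher, and each had its lowest value in the wild-type parietal library. *Dusp2* had 11.1 FPKM in the wild-type frontal library, 3.27 FPKM in the wild-type parietal, 8.65 FPKM in the *Twist1*+/- frontal and 9.80 FPKM in the labelled *Twist1*+/- parietal library. This order of the parietal values was the reverse of that of *Dusp6*. *Cbl*, a ubiquitin ligase that marks active receptors for breakdown, was lower, at 4.57 FPKM in the wild-type and 2.06 FPKM in the labelled *Twist1*+/- parietal library. After subtraction of the GC group median, *Dusp8* and *Cbl* no longer passed 2-fold, at log2 ratios of 0.78 in place of 1.31 and of -0.97 in place of -1.15, while *Dusp2* was at 1.06 and *Dusp14* at 1.26. Between bones, *Dusp2* and *Dusp8* were lower in parietal in wild-type mice and *Cbl* in *Twist1*+/- mice, and none was higher. The shares of all genes lower were 15.6% and 8.92%, and those higher were 11.2% and 2.98%.

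Of 22 other ERK-responsive and ETS genes, 20 were counted. In the parietal genotype comparison 3 were higher, *Junb*, *Myc* and *Phlda1*, and 1 lower, *Elk4*, where 10.8% of all genes were higher and 9.40% lower, so that the share of the list was close to that of all genes. *Elk4* was also the 1 gene past 2-fold in the *Twist1*+/- bone comparison, again lower, as were 8.92% of all genes. *Phlda1* had 5.52 FPKM in the wild-type parietal and 23.9 FPKM in the labelled *Twist1*+/- parietal library, a log2 ratio of 2.12, or 1.59 after subtraction of the GC group median. *Junb*, a component of the AP-1 transcription factor, had 21.0 and 43.4 FPKM, a log2 ratio of 1.05, or 0.44 after the subtraction. In the wild-type bone comparison 2 were higher in parietal, *Fos* and *Ier3*, and 1 lower, *Myc*, where 11.2% and 15.6% of all genes were. The immediate early gene *Fos* had 8.13 FPKM in the wild-type frontal library, 18.6 FPKM in the wild-type parietal, 8.95 FPKM in the *Twist1*+/- frontal and 12.7 FPKM in the labelled *Twist1*+/- parietal library, and both its parietal values lay above both frontal values, as for *Dusp6* and *Spry1*. In the frontal genotype comparison no gene of any of the 5 lists passed 2-fold in either direction, where 4.98% of all genes were higher and 2.20% lower.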

How the data were processed

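Gene expression was measured by RNA-seq (poly(A)-selected, stranded, single-end reads) in 4 libraries, 1 per genotype and bone, assigned by their sample labels. The authors aligned the reads to mm9 with STAR 2.4.2a and made the deposited FPKM values, 1 per gene symbol and library, with Cuffdiff (Cufflinks 2.2.1) on the iGenomes annotation. The option for scaling between libraries is not given in the sources used here, FPKM values keep no read counts, and the files do not give the depth of each library, so that no counting interval is given. Whether the RNA of the 12 mice per strain was pooled is not stated, and replicates that the methods mention were not analysed here.

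FPKM ratios were formed within bone and within genotype, with no pseudocount, in Python 3.11.15 with pandas 2.3.3 and numpy 2.4.6. A gene was counted with at least 1 FPKM in the higher library, and passed when its ratio exceeded 3-fold. The counting was tested on simulated data. The 2-fold threshold, pseudocounts of 1 and 0.1 FPKM, other floors, scaling to the median ratio or *Gapdh*, and subtraction of the median of 20 GC groups were alternatives. The 1.5-fold threshold and the 2-fold threshold with GC subtraction were added after the data were seen. GC content came from the longest coding transcript in GENCODE M1, matched by symbol for 19341 of the 23946 genes (80.8%) and for 9 of the 10. Coordinates are from the same annotation. No 75-base window of the longest coding transcript of those 9 genes occurred, on the same strand, in a coding transcript of another gene. Pseudogenes and noncoding genes were not searched. Start regions are RefSeq windows, found for 7 of the 10 and placed on mm9 by exact match. Named were all 10 genes, *Twist1*, *Fgf23* and *Gapdh*, at most 4 genes per pathway list past 2-fold in any comparison by their highest FPKM, and the 3 genes nearest in pattern to the one of the widest range. *Myc*, *Elk4*, *Postn*, *Ptgds* and *Spp1* were named beyond that rule, after their values were seen. The 10 genes and all lists were chosen with earlier results of these data known.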

Additional observations from a re-analysis of the deposited data

Results flagged for a closer look

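Directions that differed between groups were met in 5 of the 10 genes, and no such difference was tested, with 1 library per group. The genotype ratio had opposite signs in the 2 bones for *Spry4*, *Spred1*, *Dusp6* and *Etv5*, with a parietal minus frontal difference of the log2 ratios of *Twist1*+/- over wild-type of 0.54, -0.62, -0.30 and 0.30. For *Spred1* this was lost with the GC subtraction, where the ratios were 0.01 and 0.14 and the difference was -0.12, and with *Gapdh* scaling. For *Spry2* the bone ratio had opposite signs in the 2 genotypes, with log2 ratios of parietal over frontal of -0.45 in wild-type and 0.35 in *Twist1*+/- mice. The difference of the genotype ratios, equal to that of the bone ratios, was 0.80. The bone ratios of *Spry4* and *Spred1* had opposite signs as well, but after the GC subtraction those of *Spred1* were 0.30 in wild-type and 0.15 in *Twist1*+/- mice. In *Dusp6* and *Spred1* the frontal genotype ratios were only 0.03 and 0.06, so that their sign carries little. With *Gapdh* scaling the genotype log2 ratios of *Dusp6* were 0.12 in parietal and -0.07 in frontal bone, so that the direction of its difference was reversed. The labelled *Twist1*+/- parietal library, in which *Twist1* had a log2 ratio to wild-type of -0.05 as deposited and -0.58 after the GC subtraction, enters every one of these differences.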

How the results depend on the processing

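No leave-one-out fit could be had, with 1 library per group. No paired analysis was possible either, for the same reason. The count of genes past 3-fold was 0 in all 4 comparisons, and 0 under the other floors, pseudocount and scaling run and at 2-fold. At 1.5-fold it was 1 in the parietal genotype, 0 in the frontal genotype, 2 in the wild-type bone and 3 in the *Twist1*+/- bone comparison. At 2-fold after subtraction of the GC group median it was 1 in the parietal genotype comparison and 1 in the wild-type bone comparison. That subtraction turned the median log2 ratio of the 9 genes in the parietal genotype comparison from 0.15 to -0.03, and moved it to 0.12 from 0.01 in the frontal genotype and to 0.15 from 0.35 in the *Twist1*+/- bone comparison. Of 196 alternative values for single genes, 13 changed sign and 0 passed 3-fold. The 13 came from 2 settings. With *Gapdh* scaling they were those of *Dusp6* and *Etv4* in the parietal genotype, of *Spry2*, *Spred1* and *Dusp6* in the frontal genotype, and of *Spred1*, *Etv4* and *Erf* in the wild-type bone comparison. With the GC subtraction they were those of *Spry1*, *Spred1* and *Erf* in the parietal genotype, and of *Spred1* and *Etv4* in the *Twist1*+/- bone comparison. The cause was not tested. The files give no depth per library, and no counting error could be set on *Spry3*, below 1 FPKM throughout.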
